A study of Canis lupus familiaris with 10 samples.

Results

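Transcript levels were compared between MDCK cells kept for 2 h in calcium-free medium (S2) and the same cells in full medium (0h), on 4 of the 10 arrays of a calcium switch experiment. MDCK is an epithelial line from dog kidney whose cells form a sealed sheet. The BLT2 line overexpressed human BLT2, a receptor for the lipid 12-HHT, and the Mock line was its mock control. The S2 cultures had been confluent and were changed to SMEM, a medium without calcium, for 2 h, and the 0h cultures were confluent cells in DMEM with 10% FCS (fetal calf serum). No 12-HHT was added on these 4 arrays. The labels name no serum for SMEM, and a change of medium, of any serum and of calcium cannot be told apart here. No medium-change control was analysed here. The labels do not say whether a line was 1 clone, nor which promoter drove the receptor. LTB4R2, the gene of BLT2, had no named probe set, so the overexpression was not analysed here. Each array held RNA mixed from 3 preparations, and each line and step had 1 array. The other 6 arrays, at 18 h without calcium and at calcium return, entered the fitted tests.

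Calcium holds the outer domains of E-cadherin in a stiff, adhesive shape, and its removal opens adherens junctions and then tight junctions within a short time. Opened junctions, shape change and a medium change each reach the nucleus through known routes. Among them are the kinases that switch on immediate early genes, the Hippo effectors YAP and TEAD, and ATF4, the factor of the integrated stress response. Metallothioneins and the zinc exporter SLC30A1 answer to free zinc through the factor MTF1, and FOXO factors become active when insulin or serum factors are withdrawn.

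All values are log2 signals, so a difference of 1 is 2-fold. Genes with signals above the median of the whole table, 7.21, on at least 2 of the 10 arrays were analysed, which left 10498 of 15947 named genes. Array medians lay between 7.16 and 7.27. BLT2 S2 stood apart from the rest, with a mean correlation to the other arrays of 0.975, against 0.982 to 0.987 for the others, and with the lowest upper quartile, 8.94 against 8.98 to 9.06. Epithelial identity was read from marker genes on the 4 arrays. The E-cadherin gene CDH1 read 12.30 on BLT2 S2 and 12.26 on BLT2 0h, and 12.38 on Mock S2 and 12.22 on Mock 0h. The median change of 14 kept epithelial markers was -0.05 in BLT2 and -0.03 in Mock. None of the 14 was called, which says little, as 4.62% of all genes were called. Most markers of other cell types were below the filter: 2 of 11 fibroblast, 6 of 11 endothelial and 2 of 13 leukocyte markers were kept, and none of these was called.

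The response to 2 h without calcium had the same sign in both lines for most genes, and among named genes its large changes were mostly higher signals. Of 10498 genes, 7639 had changes of the same sign in the lines, 3403 (32.4%) above 0 and 4236 (40.4%) below 0 in both, and 2854 had opposite signs. No gene changed at least 2-fold in opposite directions. In an additive fit of line and step over the 10 arrays (limma, Benjamini-Hochberg adjusted p below 0.05), 485 genes (4.62%) were called, 277 (2.64%) higher and 208 (1.98%) lower. All 485 changed in 1 direction in BLT2 and Mock, which the additive fit favours, since its error holds the disagreement between lines. By size alone, 78 genes (0.743%) were at least 2-fold higher in both lines and 6 (0.0572%) at least 2-fold lower in both. Of those 78, 74 were called, and of those 6, 4 were called. Over all probe sets, those without a gene name included, the balance turned, with 109 at least 2-fold higher and 140 at least 2-fold lower in both lines, and with 269 called higher and 342 called lower. Of the 277 genes called higher, 7 were above the table's median on the 2 S2 arrays alone, EGR2 and GPR15 among them, and of the 208 called lower 1 was above it on the 2 0h arrays alone. Such genes entered the test only through the arrays where they were high. The called number rested on single arrays. It was 34 without BLT2 0h, 49 without Mock 0h, 68 without BLT2 S2 and 1024 without Mock S2. It was 200 without either S18 array and 298 without either array with 12-HHT. After median centring of the arrays the calls were 211 higher and 101 lower. At each later step, leaving out the Mock array or the BLT2 array gave the same fit, since the array left then sets its step alone. Leaving out both 12-HHT arrays gave the fit without either of them again. The 10 fits that left out 1 array were thus not all distinct. Of 94 called genes named here, 20 kept the call in each fit that left out 1 array. GPR15, which passed the filter only through the S2 arrays and so gives no support, was among them. The rest were ABCA8, ATF3, CCN1, CHAC1, CREBRF, CYP1B1, DDIT4, DUSP1, IRS2, JUN, NFIL3, PPP1R15A, SLC30A1, SLC7A11, SRF, TGFB2, TIPARP, TRIB3 and XBP1. The other 74 lost it without at least 1 of BLT2 S2, BLT2 0h and Mock 0h. No replicate arrays exist, so every ± below is the SE of the additive change over these 10 arrays.

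**Figure D1:**
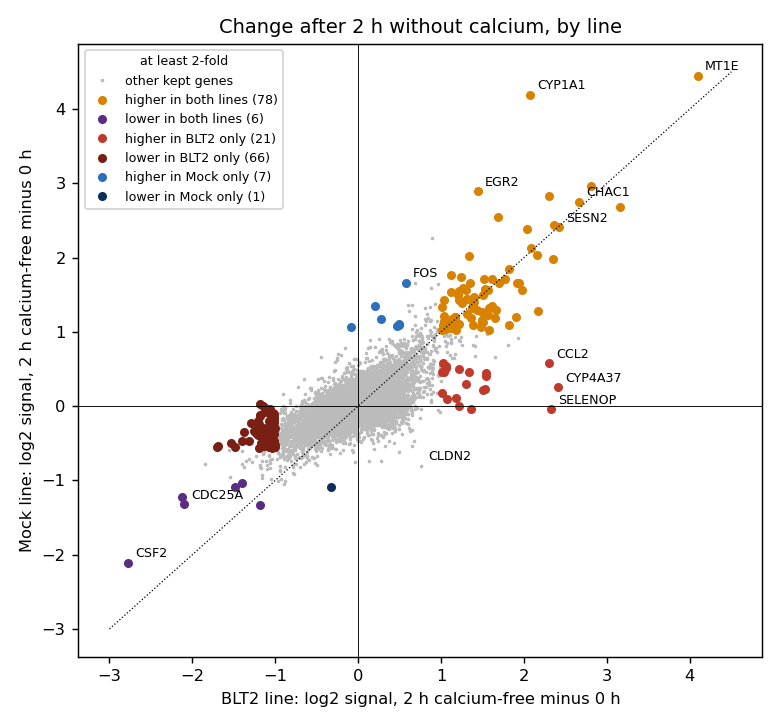
Log2 change at S2 against 0h in the BLT2 line (horizontal axis) and in the Mock line (vertical axis) for the 10498 kept genes, 1 point per gene and 1 array per signal; colours mark the size sets and the dotted line equal change. The 78 genes higher in both lines run along the line of equal change, and 66 genes lower in BLT2 only sit at the left, with Mock changes from -0.57 to 0.02.

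MT1E, a metallothionein that binds zinc and copper, showed the largest change of all kept genes. Its signal was 11.07 on BLT2 S2 and 6.97 on BLT2 0h, and 11.32 on Mock S2 and 6.87 on Mock 0h, with both 0h signals below the table's median. The 2 S2 signals lay far above the 2 0h signals, 17.1-fold in BLT2 and 21.9-fold in Mock, and the additive change was 4.27 ± 0.42 (limma adjusted p = 0.00428). The second metallothionein, MT2A, was already abundant, at 13.00 on BLT2 S2 and 11.23 on BLT2 0h, and 13.00 on Mock S2 and 11.29 on Mock 0h (1.74 ± 0.21, limma adjusted p = 0.0092). SLC30A1, which exports zinc across the cell membrane, read 11.26 on BLT2 S2 and 8.91 on BLT2 0h, and 10.79 on Mock S2 and 8.81 on Mock 0h (2.17 ± 0.20). These were the only called members among 18 kept genes of metallothionein, zinc and copper handling (16.7%, against 2.64% of all genes called higher). None of the 6 kept genes of the SLC39 family, whose proteins bring zinc into the cytosol, was called. With 4.62% of all genes called, 6 genes would seldom hold a call. Of these 5 were below 0 in both lines, with SLC39A10 at -0.92 in BLT2 and -0.56 in Mock, and SLC39A4 was at 0.73 in BLT2 and 0.22 in Mock. The list's median was -0.14 in BLT2 and -0.03 in Mock, against -0.06 and -0.01 over all kept genes. MT1E was not called without BLT2 S2 and MT2A not without BLT2 S2, BLT2 0h or Mock 0h, while SLC30A1 was called in each fit that left out 1 array.

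Genes of the integrated stress response, which ATF4 switches on when translation is restrained or amino acids run short, formed the list with the most called members. Of 36 kept genes 18 (50.0%) rose and none fell, against 2.64% and 1.98% of all genes, and 34 of 36 were above 0 in both lines. The list's median was 0.68 in BLT2 and 0.57 in Mock. PPP1R15A, the phosphatase subunit that reverses the translation block, read 9.93 on BLT2 S2 and 7.12 on BLT2 0h, and 10.30 on Mock S2 and 7.35 on Mock 0h. CHAC1, which breaks down glutathione, read 11.03 on BLT2 S2 and 8.37 on BLT2 0h, and 11.49 on Mock S2 and 8.74 on Mock 0h. In both genes each S2 array stood about as far above its own 0h array in either line, by 2.81 and 2.96 for PPP1R15A and by 2.67 and 2.75 for CHAC1. SESN2, a sestrin that restrains mTORC1, changed by 2.42 in BLT2 and 2.41 in Mock. DDIT4, another restraint on mTORC1, changed by 1.5 in both lines. The transcription factor genes of this response rose too, ATF3 by 2.21 ± 0.14, DDIT3 (CHOP) by 1.40 ± 0.23, JDP2 by 0.92 ± 0.11 and CEBPG by 0.74 ± 0.12. TRIB3, a pseudokinase that feeds back on ATF4, read 11.18 on BLT2 S2 and 9.81 on BLT2 0h, and 10.82 on Mock S2 and 9.50 on Mock 0h (1.35 ± 0.11). The mRNA of ATF4 itself, which is controlled mainly in translation, was at 0.27 ± 0.09 and was not called (adjusted p = 0.137).

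The called members of that list differed by role. Secreted factors were among them, with FGF21 at 1.49 ± 0.15, VEGFA at 0.81 ± 0.10 and STC2 at 0.70 ± 0.12. Of amino acid enzymes and carriers, SLC7A11, which imports cystine, rose by 1.79 ± 0.15, PSPH, the last enzyme of serine synthesis, by 0.86 ± 0.12 and ASNS, which makes asparagine, by 0.72 ± 0.12. Other genes of serine and one-carbon metabolism were not called, with MTHFD2 at 0.88 in BLT2 and 0.94 in Mock, PSAT1 at 0.89 and 0.37, and PHGDH at 0.42 and 0.31. Of 5 kept tRNA synthetase genes only GARS1 was called, at 0.49 ± 0.09. MARS1 was at -0.17 in BLT2 and 0.09 in Mock. Genes of the unfolded protein response, a neighbouring pathway of the endoplasmic reticulum, had 1 of 23 called (4.35%), near the 4.62% of all genes. The called gene was XBP1. It read 11.45 on BLT2 S2 and 10.33 on BLT2 0h, and 11.58 on Mock S2 and 10.41 on Mock 0h. HERPUD1, of protein degradation at the endoplasmic reticulum, was at 1.18 in BLT2 and 1.02 in Mock and not called. The chaperone gene HSPA5 was at -0.30 in BLT2 and 0.03 in Mock. Without BLT2 S2, the array that stood apart, 8 of the 36 integrated stress response genes were called, while 62 of all genes were called higher.

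**Figure D2:**
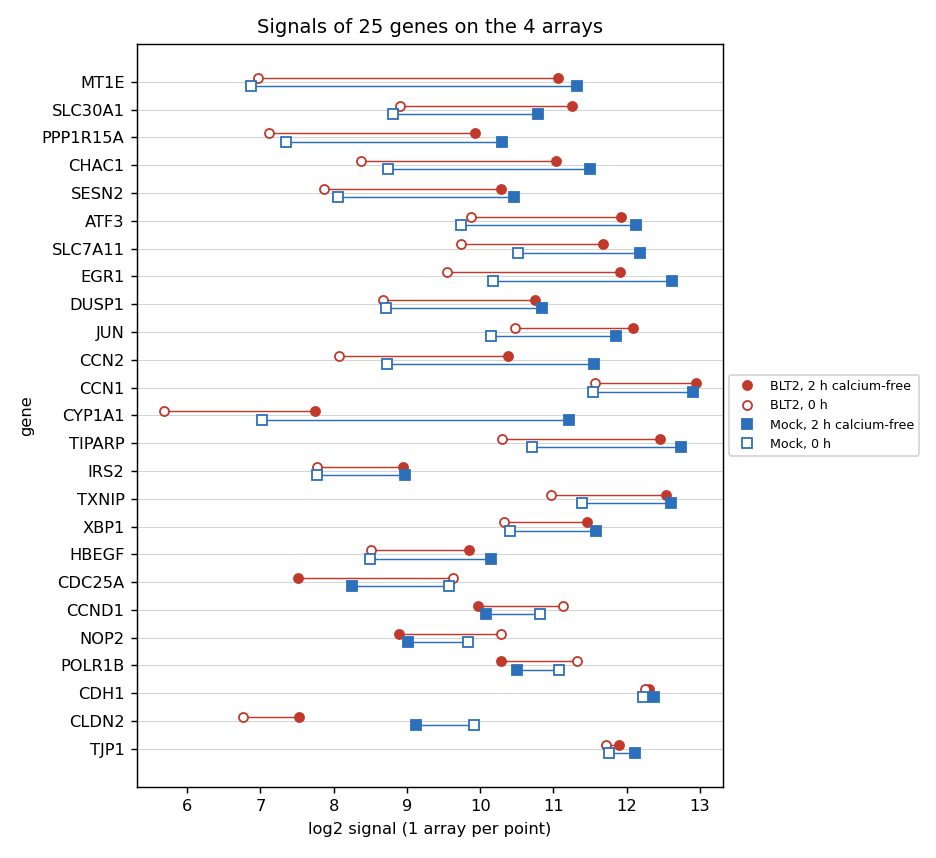
Log2 signals of 25 genes on the 4 arrays, with filled symbols for S2, open symbols for 0h, circles for BLT2 and squares for Mock, 1 array per symbol and no error bars. MT1E spans 4.09 in BLT2 and 4.45 in Mock, CDH1 hardly moves, and CLDN2 is the gene drawn here whose lines point opposite ways.

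Immediate early genes respond within minutes to growth factors or stress without new protein. Of 36 kept members 10 were called higher (27.8%) and 2 lower (5.56%), against 2.64% and 1.98% of all genes. Of the 10, EGR2 passed the filter only through the S2 arrays, where it was high, so its call gives no support. The transcription factor gene EGR1 read 11.91 on BLT2 S2 and 9.55 on BLT2 0h, and 12.62 on Mock S2 and 10.18 on Mock 0h. DUSP1, a phosphatase that switches off MAP kinases, read 10.75 on BLT2 S2 and 8.67 on BLT2 0h, and 10.85 on Mock S2 and 8.72 on Mock 0h. JUN, a subunit of AP-1, read 12.09 on BLT2 S2 and 10.47 on BLT2 0h, and 11.86 on Mock S2 and 10.14 on Mock 0h. For each of these 3 genes both S2 arrays lay above both 0h arrays. The members KLF6 (1.17 ± 0.21), MAFF (1.30 ± 0.20), FOSL2 (0.71 ± 0.12) and MCL1 (0.65 ± 0.09) also rose. SGK1, a kinase gene that serum induces, fell by 0.90 ± 0.14 on the log2 scale (limma adjusted p = 0.0178), with 10.26 on BLT2 S2 and 11.33 on BLT2 0h, and 10.55 on Mock S2 and 11.28 on Mock 0h. IER5L fell by 0.51 ± 0.09. FOS was not called, at 0.58 in BLT2 and 1.66 in Mock, and MYC was at -0.30 in BLT2 and 0.25 in Mock. SRF, the factor that binds the serum response element of many immediate early genes, rose by 1.28 ± 0.10 (limma adjusted p = 0.00157).

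Targets of YAP and TEAD had 7 of 19 members higher (36.8%) and 1 lower (5.26%), against 2.64% and 1.98% of all genes. CCN2, a secreted matrix protein, read 10.38 on BLT2 S2 and 8.07 on BLT2 0h, and 11.56 on Mock S2 and 8.73 on Mock 0h (2.56 ± 0.31, limma adjusted p = 0.00904). CCN1, its relative, read 12.95 on BLT2 S2 and 11.56 on BLT2 0h, and 12.90 on Mock S2 and 11.54 on Mock 0h, a change of almost the same size in both lines. The inhibitors of the pathway that YAP itself induces rose as well, LATS2 by 1.31 ± 0.14, AMOTL2 by 1.18 ± 0.16 and PTPN14 by 0.80 ± 0.16. The cytokine gene TGFB2 rose by 1.08 ± 0.09. ANKRD1, a target used often as a reporter, was at 1.65 in BLT2 and 0.66 in Mock and was not called. YAP1 was at -0.14 in BLT2 and 0.05 in Mock, and TEAD1 at 0.23 and 0.30, both not called. FJX1 was the lower member, at -0.46 ± 0.10 with an adjusted p of 0.0499, and it was not called in any fit that left out 1 array. Without BLT2 S2, 2 of the 19 were called, and 6 of the 36 immediate early genes.

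Targets of the aryl hydrocarbon receptor (AhR), which induces enzymes that oxidise foreign compounds, had 5 kept genes. Of these 3 (60.0%) rose, against 2.64% of all genes. CYP1A1, its best known target, read 7.75 on BLT2 S2 and 5.68 on BLT2 0h, and 11.22 on Mock S2 and 7.03 on Mock 0h. The fold was 4.2 in BLT2 and 18.2 in Mock, with 0h signals below the table's median in both lines (3.13 ± 0.45, limma adjusted p = 0.0144), and without BLT2 S2 it was not called. CYP1B1 read 11.86 on BLT2 S2 and 10.35 on BLT2 0h, and 11.94 on Mock S2 and 10.23 on Mock 0h. TIPARP, a feedback inhibitor of the receptor, read 12.45 on BLT2 S2 and 10.30 on BLT2 0h, and 12.74 on Mock S2 and 10.71 on Mock 0h. Both of these changed alike in the lines, by 1.51 and 1.71 for CYP1B1 and 2.15 and 2.03 for TIPARP. AHR itself was at -0.55 in BLT2 and -0.35 in Mock and not called.

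FOXO targets and genes that rise when growth factors are low had 9 of 18 members higher (50.0%) and none lower. Over all genes the shares were 2.64% and 1.98%. The list's median was 1.11 in BLT2 and 0.64 in Mock. IRS2, an adaptor of the insulin receptor, read 8.94 on BLT2 S2 and 7.77 on BLT2 0h, and 8.97 on Mock S2 and 7.77 on Mock 0h (1.18 ± 0.10). TXNIP, which restrains glucose uptake, rose by 1.39 ± 0.24 and its relative ARRDC4 by 1.38 ± 0.16. GABARAPL1, an autophagy protein, read 11.57 on BLT2 S2 and 9.75 on BLT2 0h, and 12.39 on Mock S2 and 11.29 on Mock 0h. HBP1, a repressor of cell cycle genes, rose by 1.18 ± 0.16, FBXO32, a ubiquitin ligase subunit, by 1.09 ± 0.15, and BCL6, a repressor, by 1.02 ± 0.12. The changes of GABARAPL1 (1.82 in BLT2, 1.10 in Mock) and HBP1 (1.42 in BLT2, 0.94 in Mock) were larger on the BLT2 pair, and of IRS2 were alike. Without BLT2 S2, 3 of the 18 were called.

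The p53 list had 5 of 22 members higher (22.7%), against 2.64% of all genes, of which SESN2 and BTG2 belong to other lists too. Without BLT2 S2, 1 of the 22 was called. DDB2 rose by 1.45 ± 0.20, PMAIP1 by 1.44 ± 0.18 and SUSD6 by 0.98 ± 0.09. The most used p53 reporters were not called, with CDKN1A at 0.52 in BLT2 and -0.07 in Mock and MDM2 at 0.01 and -0.12. Among NF-kB targets and cytokines 2 of 19 rose, RELB by 1.27 ± 0.18 and LIF by 0.78 ± 0.13, and neither was called without BLT2 S2. PTGS2, the inducible cyclooxygenase, was at 1.61 in BLT2 and 1.35 in Mock and missed the threshold, while the receptor genes PTGER4 and PTGER2 for the prostaglandin it leads to were called, at 0.69 ± 0.10 and 0.56 ± 0.11. PTGER4 was not called without BLT2 S2, BLT2 0h or Mock 0h, and PTGER2 was called in none of the 10 fits that left out 1 array (highest limma adjusted p = 0.195). HBEGF was the called member of 21 ERK feedback genes and EGF family ligands (4.76%, near the 4.62% of all genes called). It read 9.85 on BLT2 S2 and 8.50 on BLT2 0h, and 10.15 on Mock S2 and 8.50 on Mock 0h (1.5 ± 0.23). NFIL3, a circadian repressor, rose by 1.68 ± 0.12, and CLOCK fell by 0.63 ± 0.10.

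**Figure D3:**
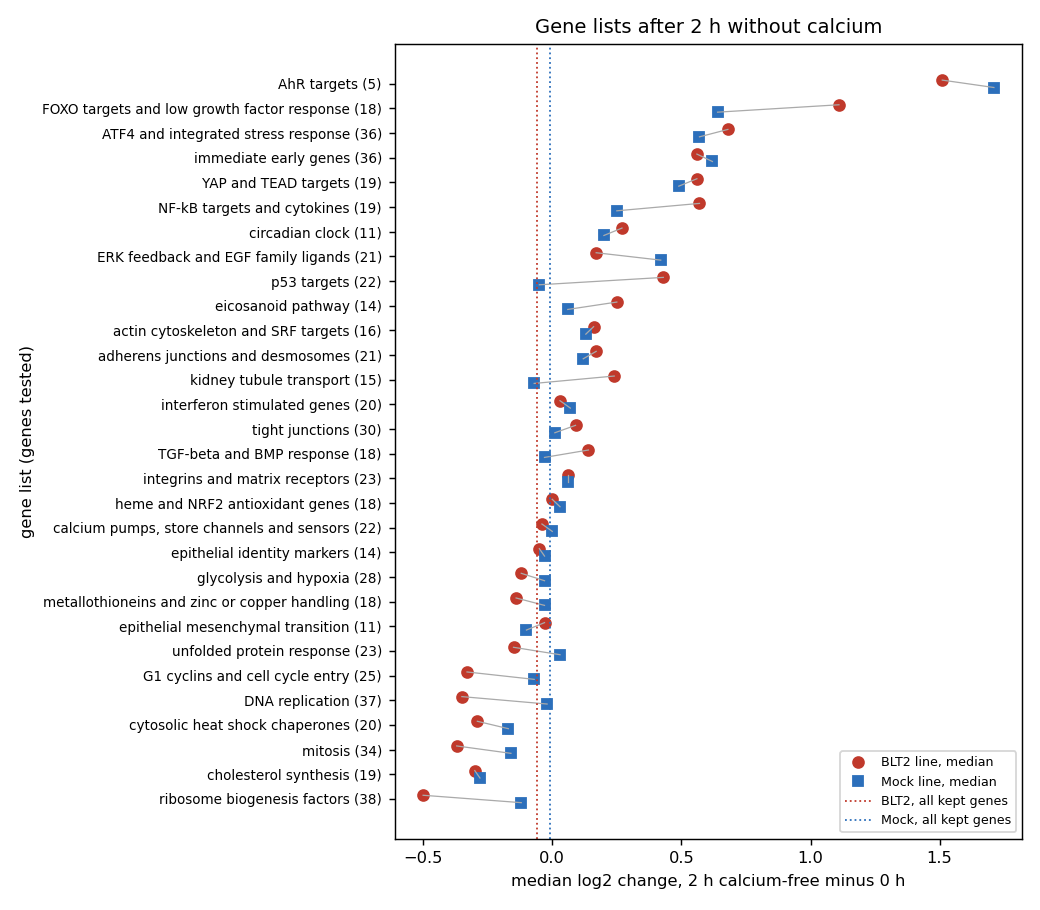
Median log2 change at S2 against 0h of each gene list in the BLT2 line (circles) and the Mock line (squares), with the number of kept genes in brackets and dotted lines at the medians of all kept genes. Medians of the AhR, FOXO, integrated stress response and immediate early lists are above 0.5 in both lines. Those of ribosome biogenesis, DNA replication, mitosis and G1 genes are among those lower in BLT2 than in Mock. The median of all kept genes is also lower in BLT2.

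Junction genes, whose proteins the treatment pulls apart, changed little as transcripts at this time. Of 30 kept tight junction genes 1 was called (3.33%) and of 21 adherens junction and desmosome genes 1 (4.76%), shares near the background. The called genes were the polarity gene PARD6B (0.66 ± 0.10) and the adhesion receptor gene NECTIN2 (0.61 ± 0.13). The scaffold gene TJP1 (ZO-1) was at 0.26 ± 0.10, CLDN4 at 0.29 ± 0.23, CLDN7 at -0.15 ± 0.12, OCLN (occludin) at -0.12 ± 0.14 and CLDN1 at -0.03 ± 0.15, none of them called. CDH1 was at 0.10 ± 0.10. CGNL1, a junction scaffold, was at 0.65 in BLT2 and 1.36 in Mock and not called. CLDN2, which forms cation and water pores, ran opposite ways. It read 7.53 on BLT2 S2 and 6.77 on BLT2 0h, and 9.12 on Mock S2 and 9.92 on Mock 0h. In the test of the line difference it had an unadjusted p of 0.00143 and an adjusted p of 0.919 (limma on BLT2 minus Mock differences), and its BLT2 0h signal lay below the table's median.

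Among named genes, fewer of the large changes were falls. The clearest was CDC25A, a phosphatase that lets cells enter S phase, at 7.52 on BLT2 S2 and 9.62 on BLT2 0h, and 8.25 on Mock S2 and 9.57 on Mock 0h (fell by 1.71 ± 0.18 on the log2 scale, limma adjusted p = 0.00475). Without BLT2 0h it was not called (adjusted p = 0.0565). TNS4, a focal adhesion protein, read 9.46 on BLT2 S2 and 10.64 on BLT2 0h, and 9.17 on Mock S2 and 10.50 on Mock 0h. PHF23, a PHD finger protein, read 7.27 on BLT2 S2 and 8.76 on BLT2 0h, and 7.66 on Mock S2 and 8.76 on Mock 0h. Each of these genes was at least 2-fold lower in both lines, as was LOC611209, a gene with a locus symbol alone. The other 2 genes of that set were not called. CSF2, the cytokine GM-CSF, was at -2.78 in BLT2 and -2.11 in Mock (SE 0.55, adjusted p = 0.051), and the death receptor gene TNFRSF21 at -2.12 and -1.22.

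Other genes called lower had varied roles. TOB1, an antiproliferative protein, fell by 0.99 ± 0.12, and KCNN4, a calcium-activated potassium channel, by 1.04 ± 0.12. DUSP7, a phosphatase of ERK, fell by 0.91 ± 0.11, BTG3, a relative of TOB1, by 0.98 ± 0.16, and SERTAD3 by 1.26 ± 0.19, with changes of -1.55 in BLT2 and -0.96 in Mock. CCND1, the gene of cyclin D1, read 9.97 on BLT2 S2 and 11.13 on BLT2 0h, and 10.08 on Mock S2 and 10.82 on Mock 0h (fell by 0.95 ± 0.13). CDC25A and CCND1 were the called members of 25 G1 genes (8.0%, against 1.98% of all genes called lower). None of 37 DNA replication genes and none of 34 mitosis genes was called. With 4.62% of all genes called, lists of this size would hold few calls. In the mitosis list 29 of 34 were below 0 in both lines, against 40.4% of all genes. The mitosis medians were -0.37 in BLT2 and -0.16 in Mock. In the replication list the median was -0.35 in BLT2 and -0.02 in Mock, and 36 of 37 genes had the lower value in BLT2, against 6587 of all 10498. Of 19 cholesterol synthesis genes STARD4 alone was called (5.26%, near the 4.62% of all genes called). Of the 19, 17 were below 0 in both lines, with medians of -0.30 in BLT2 and -0.28 in Mock.

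Ribosome biogenesis factors, which build ribosomal subunits in the nucleolus, were the list with the most lower calls, 5 of 38 (13.2%) against 1.98% of all genes. NOP2, an rRNA methyltransferase, read 8.89 on BLT2 S2 and 10.28 on BLT2 0h, and 9.02 on Mock S2 and 9.83 on Mock 0h (fell by 1.10 ± 0.15). POLR1B, a subunit of RNA polymerase I, read 10.28 on BLT2 S2 and 11.32 on BLT2 0h, and 10.51 on Mock S2 and 11.08 on Mock 0h. POLR1A, the largest subunit of that polymerase, fell by 0.76 ± 0.15, GRWD1 by 0.61 ± 0.12 and RRS1 by 0.58 ± 0.09. All 5 lay lower at S2 in each line, and RRS1 was the one of them with the larger fall in Mock. In the whole list 31 of 38 were below 0 in both lines, 36 had the lower value in BLT2, and the median was -0.50 in BLT2 and -0.12 in Mock. Without BLT2 S2 none of the 38 was called, while 6 genes in all were called lower. Ribosomal protein genes, the products assembled by these factors, had none of 52 called, with medians of -0.08 in BLT2 and -0.03 in Mock. With 1.98% of all genes called lower, 52 genes would hold few such calls. Of the 52, 44 had the lower value in BLT2, against 6587 of all 10498, and 2 were at least 2-fold lower in BLT2 only.

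Among the called genes the falls, and not the rises, were larger on the BLT2 pair. The 208 genes called lower had a median change of -0.77 in BLT2 and -0.52 in Mock, and 177 of them fell more in BLT2. The 277 genes called higher had medians of 0.80 in BLT2 and 0.81 in Mock, and 130 of them rose more in BLT2. By size alone, 101 genes (0.962%) were at least 2-fold lower on the BLT2 pair and 10 (0.0953%) on the Mock pair, while 127 (1.21%) and 113 (1.08%) were at least 2-fold higher. Large rises in 1 line alone were also more frequent in BLT2, with 21 genes at least 2-fold higher in BLT2 only and 7 in Mock only. The spread of changes over all genes had an SD of 0.404 in BLT2 and 0.298 in Mock. No gene passed the test of a different change between the lines (0 of 10498, limma), and 498 (4.74%) had an unadjusted p below 0.05, 336 of them with the lower change in BLT2. Over all 10498 genes, 6587 had the lower change in BLT2, which is the background for the 336 and the 177. The line difference test rests on 2 residual degrees of freedom. Its lack of calls does not show equal change in the lines.

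BLT2 S2 held the lowest of a gene's 10 signals for 2343 genes (22.3%), against 3.19% to 11.3% on the other arrays. It held the highest signal for 11.9%, a share like that of several other arrays. The shift differed by signal level. Genes were set in 4 equal bins of mean signal. In the lowest bin the median change was 0.17 in BLT2 and 0.00 in Mock. In the 3 higher bins it was -0.12, -0.14 and -0.09 in BLT2, and -0.01, -0.01 and -0.02 in Mock. The interquartile range of the changes was wider on the BLT2 pair in every bin, from 0.351 to 0.504 against 0.235 to 0.310 in Mock. Below 0 were 56.4% of genes on the BLT2 pair and 51.5% on the Mock pair. These shares turned on the scaling, with 49.5% in BLT2 and 47.7% in Mock after quantile normalization, 61.6% and 41.3% after median centring, and 50.6% and 47.6% after cyclic loess. Median centring put the median change of all genes at -0.11 in BLT2 and 0.04 in Mock.

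**Figure D4:**
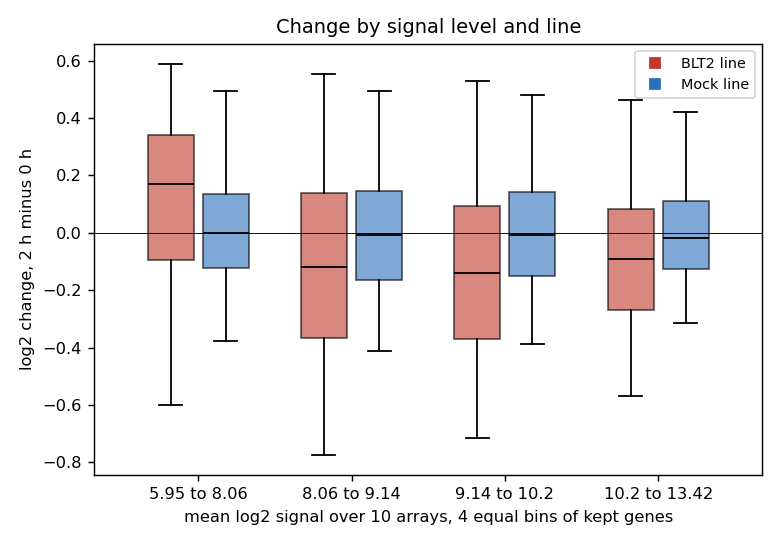
Log2 change at S2 against 0h for the kept genes in 4 equal bins of their mean signal over 10 arrays, BLT2 line left and Mock line right in each pair; boxes show quartiles and whiskers the 5th and 95th percentiles over genes. The BLT2 median is 0.17 in the lowest bin and negative in the other 3, while the Mock medians are near 0.

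Genes at least 2-fold lower in BLT2 and changed by less than 0.58 downwards in Mock numbered 66 (0.629%). Their BLT2 and Mock changes chose them, so these are given as description: a median of -1.12 in BLT2, with a range from -1.70 to -1.0, and of -0.35 in Mock, with a range from -0.57 to 0.02. In Mock 64 of the 66 were also below 0. A further 29 genes were 2-fold lower in BLT2 but between 0.58 and 1 lower in Mock, and stay outside the set. At the 2-fold edge, UTP11 and SENP7 were the last inside and MANF and NUFIP1 the first outside, all at -1.0 in BLT2 after rounding. DKC1, the pseudouridine synthase of ribosomal RNA and a telomerase component, read 7.43 on BLT2 S2 and 8.72 on BLT2 0h, and 8.83 on Mock S2 and 9.06 on Mock 0h. COX17, a copper chaperone of cytochrome oxidase, read 6.84 on BLT2 S2 and 8.03 on BLT2 0h, and 8.01 on Mock S2 and 7.99 on Mock 0h. HPRT1, a purine salvage enzyme often used as a reference gene, read 10.63 on BLT2 S2 and 11.75 on BLT2 0h, and 11.90 on Mock S2 and 11.98 on Mock 0h. In all 3 genes BLT2 S2 was the low array and the other 3 arrays lay close together.

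The named members of that set include CDCA7, a chromatin protein of dividing cells (-1.69 in BLT2, -0.54 in Mock), and HAUS1, a subunit of the augmin complex of the spindle (-1.18 and -0.13). Also in it are DDX19A, an RNA helicase of mRNA export (-1.18 and -0.12), and CEP57L1, a centrosomal protein (-1.54 and -0.50). Of the ribosome biogenesis list 4 members were in the set, DKC1, GAR1, POLR1A and POLR1B. Other members with a role in making ribosomes, named here after their values were seen, were MPHOSPH10, UTP18, UTP11, BRIX1 and ESF1.

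What the rule did not use were the later arrays. At 0h the median BLT2 minus Mock difference of the 66 genes was -0.03, and at S2, which chose them, -0.85. At 18 h without calcium it was -0.06, at calcium return 0.06 and at return with 12-HHT -0.09, against 0.00, 0.01 and -0.01 over all genes. The median signal of the 66 was 7.84 on BLT2 S2 and 9.0 on BLT2 0h, and 8.79 on Mock S2 and 9.12 on Mock 0h. At 18 h it was 8.65 in BLT2 and 8.67 in Mock, so that the gap seen at 2 h was not seen at 18 h. The mean line difference over the 3 later steps was below 0 for 36 of the 66 genes (54.5%), against 51.0% of all genes. These genes sat mostly at middle signals, with 19, 30, 15 and 2 of them in the 4 signal bins from low to high. After quantile normalization the set held 57 genes, 54 of them among the 66. After median centring it held 91, all 66 among them, and after cyclic loess 64, with 52 of the 66. The part of this 1 array in the set cannot be told apart from a response of the BLT2 line, as BLT2 at S2 had no other array.

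**Figure D5:**
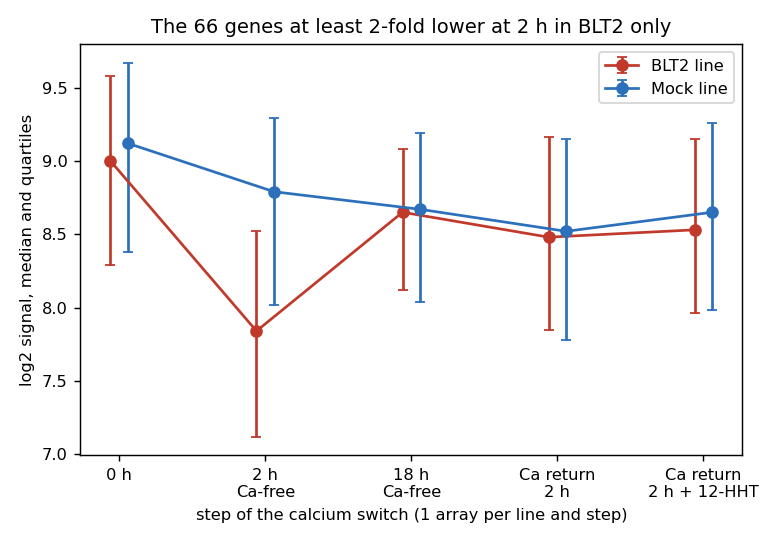
Median log2 signal, with quartiles over genes as bars, of the 66 genes at least 2-fold lower at S2 in BLT2 only, along the 5 steps of the calcium switch with 1 array per line and step. The BLT2 median is 7.84 at S2 and 8.65 at 18 h, while the Mock medians at those steps are 8.79 and 8.67.

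Genes at least 2-fold higher in BLT2 only numbered 21 (0.2%), with a median of 1.22 in BLT2 and 0.40 in Mock. SELENOP, a selenium carrier, read 8.24 on BLT2 S2 and 5.91 on BLT2 0h, and 9.14 on Mock S2 and 9.18 on Mock 0h. CCL2, a chemokine that draws monocytes, read 11.43 on BLT2 S2 and 9.13 on BLT2 0h, and 9.40 on Mock S2 and 8.82 on Mock 0h. CCL2 thus rose in both lines, and its Mock change of 0.579 lay just under the limit of 0.58 for this set. The chemokine CCL7 was at 1.51 in BLT2 and 0.22 in Mock, the acute phase protein SAA1 at 1.52 and 0.23, and the growth factor EGF at 1.54 and 0.40. SELENOP, EGF and CYP4A37, a fatty acid hydroxylase, began from a lower 0h level in BLT2. CYP4A37 read 10.33 on BLT2 S2 and 7.92 on BLT2 0h, and 11.90 on Mock S2 and 11.64 on Mock 0h. EGF read 8.36 on BLT2 S2 and 6.82 on BLT2 0h, and 9.81 on Mock S2 and 9.41 on Mock 0h. In these 3 genes the BLT2 S2 signal lay between that of BLT2 0h and those of Mock. The BLT2 0h signals of SELENOP and EGF lay below the table's median. TP53INP1, a p53 target of autophagy, was at 1.36 in BLT2 and -0.04 in Mock at S2, and its signal at 18 h was 9.82 in BLT2 and 9.69 in Mock.

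In Mock only, 7 genes (0.0667%) were at least 2-fold higher and 1 (0.00953%) lower. ETV5, an ETS factor induced by ERK, read 7.06 on BLT2 S2 and 6.86 on BLT2 0h, and 7.94 on Mock S2 and 6.58 on Mock 0h. All of these but the Mock S2 signal lay below the table's median of 7.21, where signals carry little information on change. FOS, a subunit of AP-1, read 9.90 on BLT2 S2 and 9.32 on BLT2 0h, and 11.31 on Mock S2 and 9.65 on Mock 0h. FOS thus rose in both lines, and its BLT2 change of 0.575 lay just under the limit of 0.58 for this set. FOSL1, a relative of FOS, was at 0.49 in BLT2 and 1.09 in Mock. ZIC2, PLAG1, KLHDC9 and RUNDC3B completed the higher genes, and IL10RA, a cytokine receptor chain, was the lower one at -0.33 in BLT2 and -1.09 in Mock. ETV5 and FOSL1 are members of the ERK feedback and EGF ligand list, whose median was 0.17 in BLT2 and 0.42 in Mock. Its feedback inhibitor genes were not called and had mixed values. SPRY2 was at -0.20 in BLT2 and 0.68 in Mock, SPRY1 at -0.05 and 0.63, and DUSP6 at -0.01 and 0.48, while SPRY4 was at 0.09 in BLT2 and -0.12 in Mock and SPRED3 at 0.08 and -0.01. EGR2, another gene that ERK signalling induces, was at least 2-fold higher in both lines. It read 7.74 on BLT2 S2 and 6.30 on BLT2 0h, and 9.33 on Mock S2 and 6.43 on Mock 0h. EGR2 passed the filter only through the S2 arrays. None of these line differences passed the test over all genes, EGR2 having an unadjusted p of 0.00054 and an adjusted p of 0.919 (limma).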

How the data were processed

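The authors deposited 1 table of log2 signals from GeneChip Canine Gene 1.0 ST arrays, per the labels. Per the submitters' processing notes, the tools were Affymetrix Expression Console and GCRMA, the second a method that adjusts background by probe sequence and puts arrays on 1 distribution. Their versions are not given in the sources used here. Such scaling hides differences shared by all probe sets of an array. Of 32391 probe sets, 16545 had 1 gene symbol in the platform annotation, 370 several and 15476 none. These gave 15947 genes. For the 516 with several probe sets the one with the highest mean was used. Genes above 7.21 on at least 2 arrays were kept.

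Differences S2 minus 0h were taken within each line, 1 array each. The shared change was tested in limma 3.58.1 (R 4.3.3) with line and step as terms over 10 arrays, 4 residual degrees of freedom, and Benjamini-Hochberg adjustment over 10498 genes at 0.05. The line difference was tested on the 5 BLT2 minus Mock differences, with terms for 0h and S2 and 2 residual degrees of freedom. Both fits were tested on simulated data with planted log2 changes of size 1 and 2. The additive fit found 80.5% and 99% of them, and the line difference fit 12% and 54%. The line difference fit would thus miss many real differences of these sizes. Arrays give no read depth, and their number limits the precision.

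Members, lists and rules were chosen with earlier results of these data known. Named genes are, by rule, up to 15 called higher and 15 called lower by the smaller line change, up to 10 of each set of 1 line, up to 6 of each list by size, and junction and metallothionein genes. Other names, given where a role or edge called for them, were chosen after their values were seen. Only part of the genes under the rule is printed. Alternatives were other filters, scalings, probe set rules, models, fold sizes and arrays left out. Promoter motifs were not run, as no sequence was used here.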

Additional observations from a re-analysis of the deposited data

Results flagged for a closer look

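Probe sets without a gene name entered above only the counts over all probe sets, among them the 140 at least 2-fold lower in both lines. Of 6747 such probe sets that passed the filter, 134 (1.99%) were at least 2-fold lower at S2 than at 0h in both lines, against 6 of 10762 probe sets with a gene name (0.0558%). They drew attention as a signal outside the named genes. At least 2-fold higher in both lines were 30 (0.445%) of the unnamed and 79 (0.734%) of the named probe sets. The median signal of the 134 was 6.40 on BLT2 S2 and 8.27 on BLT2 0h, and 7.2 on Mock S2 and 8.54 on Mock 0h. Of the 134, 126 fell more in BLT2. At 18 h without calcium their median was 7.54 in both lines, at calcium return 8.05 in BLT2 and 7.63 in Mock, and at return with 12-HHT 8.10 in BLT2 and 7.92 in Mock. S2 values chose these probe sets, so the 4 medians describe them and the later steps do not depend on that choice. The count was 115 after quantile normalization, 123 after median centring and 132 after cyclic loess. What these probe sets measure was not analysed here. The outlier check could not be made, since no group had more than 1 array.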

How the results depend on the processing

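The number of genes called for a shared change was 485, with 277 higher and 208 lower, and it moved with the fit. It was 309 (99 lower) with no signal filter, 312 (101 lower) after median centring, 298 (100 lower) without the 12-HHT arrays, 118 (83 higher, 35 lower) without a line term and 1805 (777 higher, 1028 lower) from the 4 arrays alone. Over all probe sets 342 were lower. Leaving out each array in turn gave 34 to 1024 called, 34 to 302 higher and 0 to 722 lower. The fit that gave 0 lower left out BLT2 0h. The number called for a line difference was 0 in limma under each of the 12 alternatives run. Counts by size changed with the fold. At 1.5-fold they were 246 higher and 104 lower in both lines, 103 higher and 349 lower in BLT2 only, and 31 higher and 9 lower in Mock only. At 3-fold they were 19 and 1, 3 and 2, and 1 and 0 in that order. Over all probe sets, 140 were lower in both lines, 48 higher and 267 lower in BLT2 only, and 11 higher and 4 lower in Mock only. With the filter at the 75th percentile, 34 were lower in BLT2 only, and 2 higher and 0 lower in Mock only. The other counts stayed within 1.5 times of the value given above. Of 94 called genes named here, 10 lost the call after median centring, 15 with no filter, 2 after cyclic loess, none after quantile normalization and 47 without a line term. Without BLT2 0h 68 lost it, without Mock 0h 65, without BLT2 S2 63 and without Mock S2 8. Genes that were not called and changed sign with 1 array left out ranged over these fits from -1.12 to 1.08 (CLDN2), -0.27 to 2.56 (SELENOP), -0.35 to 0.79 (CDKN1A), -0.47 to 0.42 (MYC), -0.14 to 0.06 (YAP1), -0.01 to 0.48 (DUSP6), -0.01 to 0.59 (SPRY1), -0.33 to 0.81 (SPRY2), -0.17 to 1.14 (RUNDC3B), -0.15 to 0.12 (SPRY4) and -0.06 to 0.13 (SPRED3). The cause of these shifts was not tested. The line term already compares S2 with 0h within each line. No paired analysis was possible by replicate number because each group has 1 array and the labels carry no such numbers. Signals below the table's median carry little information on change.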

Other observations

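Further genes and families, set apart by symbol alone, changed at 2 h. GPR15, a chemoattractant receptor known from T cells, read 8.76 on BLT2 S2 and 6.94 on BLT2 0h, and 8.71 on Mock S2 and 6.86 on Mock 0h. On the 8 arrays other than S2 it lay below the table's median of 7.21. It thus passed the filter only through the S2 arrays. Its call gives no support, and only its values are given. ABCA8, a lipid transporter, rose by 2.12 ± 0.19 and had 0h signals of 5.64 in BLT2 and 5.75 in Mock, both below the table's median. CREBRF, a regulator of CREB3 proteins, rose by 1.79 ± 0.14, and IL22RA1, a chain of the interleukin 22 receptor, by 1.77 ± 0.26. SNAI2, a repressor of epithelial genes, rose by 0.95 ± 0.15 and was not called without BLT2 S2, BLT2 0h or Mock 0h. CREBRF and IL22RA1 were chosen after their values were seen.

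Of 18 kept histone gene symbols 3 (16.7%) were called higher, H2AC6 (0.78 ± 0.11) and H1-10 (0.63 ± 0.14) among them, H1-10 being a linker histone gene outside the replication-dependent group. Of 23 genes of lysine methyltransferases and demethylases 3 (13.0%) rose, KMT5B by 0.94 ± 0.16, KDM6B by 0.70 ± 0.14 and KDM4A by 0.67 ± 0.11. Zinc finger genes with ZNF symbols had 8 of 114 higher (7.02%) and 1 lower. Among centrosomal CEP genes 3 of 31 (9.68%) fell, CEP76 by 0.73 ± 0.13, CEP112 by 0.68 ± 0.10 and CEP85 by 0.53 ± 0.10. Mitochondrial ribosomal protein genes had 3 of 72 lower (4.17%), MRPL51 by 0.88 ± 0.13, MRPL19 by 0.74 ± 0.16 and MRPL52 by 0.57 ± 0.12, with medians of -0.32 in BLT2 and -0.09 in Mock. These shares stand beside 2.64% higher and 1.98% lower over all genes. Without BLT2 S2 none of the histone, methyltransferase, CEP or mitochondrial ribosomal genes was called, and 1 ZNF gene was.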
